A study of Mus musculus with 2 samples.

Results

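The stromal set consisted of the bone marrow cells (BMCs) that carried RNA of bone matrix, reticular stroma or endothelium. A cell was a member when it held at least 10 unique molecular identifiers (UMIs, each 1 counted RNA molecule) summed over *Col1a1*, *Col1a2*, *Sparc*, *Cxcl12*, *Igfbp5*, *Igfbp7* and *Fabp4*. These UMIs had to come from at least 2 of the genes, and the macrophage genes *C1qa*, *C1qb* and *C1qc* together had to stay under 5 UMIs. The rule found 56 members among 9933 cells, of which 40 were in the WT library of 6271 cells and 16 in the Cko library of 3662 cells. The 7 genes that chose the members are given below as a description only.

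BMCs of C57BL6/J mice at postnatal day 21 were compared between WT and Cko, in which site-1 protease (S1P, encoded by *Mbtps1*) was deleted with a Cre-GFP transgene driven by the Osterix (*Sp7*) promoter. The crushed fore- and hindlimbs were digested briefly with collagenase, red cells were lysed, and 1 mouse per genotype gave 1 library of 3′ end tags. The paper uses floxed mice without Cre as its WT elsewhere, whereas the label of this library says only WT. It also gives evidence that the transgene is active in neutrophils, so that the deletion is not limited to bone-forming cells. With 1 library per genotype no test was possible, and differences between the mice, the preparations and the genotypes cannot be told apart. The 95% intervals below describe the counting error of cells or UMIs alone, since the cells of a library share 1 mouse.

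Osteoblasts make bone matrix from type I collagen and proteins such as osteocalcin, and they arise from progenitors that express the transcription factor Osterix. Reticular stromal cells of the marrow secrete the chemokine CXCL12 and stem cell factor, which keep hematopoietic progenitors in place, and many of them express leptin receptor and adiponectin. Sinusoidal endothelial cells line the wide vessels through which blood cells leave the marrow, and they carry scavenger receptors such as stabilin-2. S1P is a protease of the Golgi that releases transcription factors for cholesterol synthesis and for the response to unfolded proteins.

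The members just inside the rule held 18, 18 and 23 UMIs of the 7 genes in the WT and 53, 61 and 75 in the Cko. The cells just outside it held 9 and 8 UMIs in each library. A pair of Cko cells with 46 and 55 UMIs was left out for 50 and 18 UMIs of the C1q genes. In each library 1 cell was left out because *Sparc* was its only gene of the rule, with 207 UMIs in the WT and 92 in the Cko.

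The members fell into 3 profiles with wide gaps between them. Their limits of 100 UMIs were set after the values were seen. The osteolineage-like profile held 7 WT cells with 273 to 1594 UMIs of osteolineage list genes outside the rule, whereas the next WT cell held 38. Of these list genes 22 were listed for the WT and 7 for the Cko, and an unlisted gene added 0. The highest Cko member held 12 UMIs of the 7 genes. The megakaryocyte-like profile held 7 WT cells with 823 to 2339 UMIs of the platelet genes *Pf4* and *Ppbp*, whereas no remaining member held more than 2. The other 26 WT members and all 16 Cko members formed the third profile, called reticular and endothelial-like after the genes that most of its cells carried. The name of the set therefore covered most of its members but not the megakaryocyte-like cells. All 12 chondrocyte list genes in the WT and all 6 in the Cko were at 0 UMIs in the members.

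**Figure D1:**
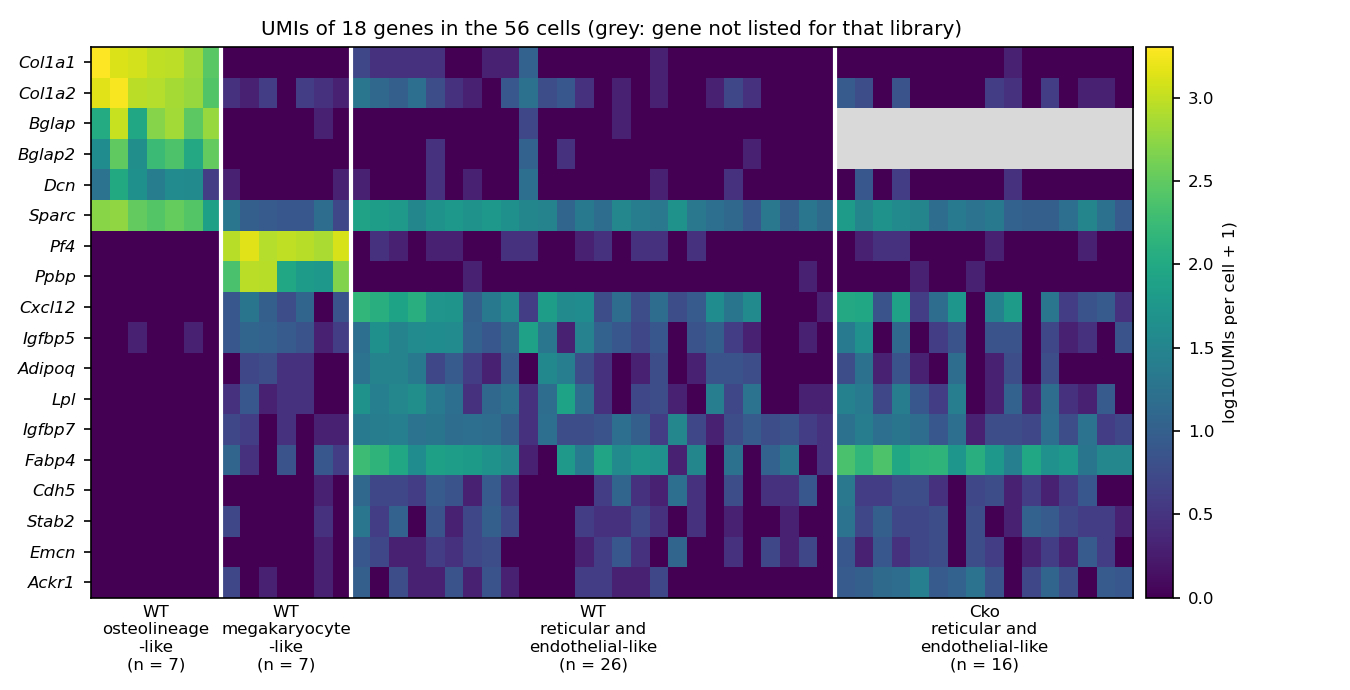
Each column is 1 of the 56 cells, ordered by library, profile and UMIs of the rule genes, and the color gives log10 of the UMIs per cell + 1. The 7 osteolineage-like cells hold the *Col1a1* and *Bglap* signal, the 7 megakaryocyte-like cells hold *Pf4* and *Ppbp*, and *Cxcl12* and *Fabp4* mark most of the remaining 26 WT and 16 Cko cells. Grey marks genes not listed for the Cko.

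The set took 0.638% of the WT cells (exact binomial interval 0.456% to 0.868%) and 0.437% of the Cko cells (0.250% to 0.709%). The log2 Cko/WT ratio of these shares was -0.55, with an interval of -1.48 to 0.32 that includes equal shares. The difference lay in the first and second profiles. Reticular and endothelial-like cells took 0.415% (0.271% to 0.607%) of the WT and 0.437% of the Cko, which is a ratio of 1.05 (0.528 to 2.04). Osteolineage-like cells and megakaryocyte-like cells each took 0.112% (0.0449% to 0.230%) of the WT. Each profile had 0 of 3662 cells in the Cko, which allows a share of up to 0.0819% by the limit of 3 cells and 0.101% by the exact binomial interval. The upper limit of each Cko/WT ratio was 1.19, so counting error alone does not separate 7 cells from 0 at these library sizes.

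**Figure D2:**
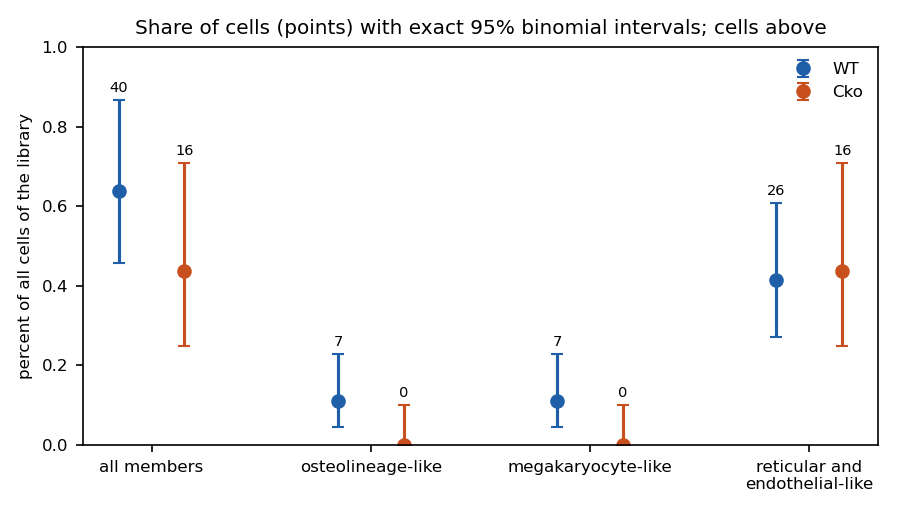
Points give the percent of all cells of a library in the stromal set and in each profile, bars the exact 95% binomial intervals, and the numbers above the bars the cells. The WT and Cko points of the reticular and endothelial-like cells lie at 0.415% and 0.437%, and the Cko points of the other profiles are at 0.

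Cell depth moved with the WT share. When each cell was thinned to 3000 UMIs, 27 WT and 16 Cko members remained and the log2 ratio became 0.02. All 7 osteolineage-like cells remained, the 7 megakaryocyte-like cells all dropped out, and 20 of the 26 WT reticular and endothelial-like cells stayed. With cells under 1% hemoglobin UMIs as members and as denominator, the shares were 1.15% and 0.472%, since 3126 WT and 3177 Cko cells passed that limit. The log2 ratio was then -1.29 (-2.26 to -0.38). The ratio thus kept its sign under the hemoglobin limit, which changed members and denominator together, and was near 0 after thinning.

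The 7 osteolineage-like cells were filled with collagen and osteocalcin RNA. *Col1a1* and *Col1a2*, which encode the chains of type I collagen and belong to the rule, ranged from 287 to 2017 UMIs (median 974) and from 253 to 1885 UMIs (median 873) per cell. *Bglap*, which encodes osteocalcin and was not used by the rule, ranged from 92 to 1058 UMIs with a median of 500. *Bglap2* ranged from 40 to 321 with a median of 177. Every cell of this profile was therefore positive for both genes. As CPM (the UMIs of a gene scaled to a total of 1000000 UMIs of the cells compared), *Bglap* stood at 54088 (52279 to 55943) in these cells and at 0.984 in the WT cells outside the set. Of the 3439 *Bglap* UMIs of the WT library, 3384 were in members.

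The *Bglap* genes lie side by side on chromosome 3 of GRCm38, with *Bglap* at chr3:88383501-88384464, *Bglap2* at chr3:88377736-88378699 and *Bglap3* at chr3:88368616-88372743, all on the minus strand. The last 300 bases of their annotated transcripts are 99.7% identical between *Bglap* and *Bglap2* and 96.7% between *Bglap* and *Bglap3*. Because 3′ tags fall in this stretch, the division of UMIs among these genes is uncertain. *Bglap3* itself held 1 to 15 UMIs per cell.

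Further genes of bone matrix and its assembly were found in all 7 cells. *Dcn*, a small proteoglycan of collagen fibrils, held 3 to 101 UMIs per cell and 264 in sum. *Col5a2* and *Col11a1*, which encode fibrillar collagens, held 12 to 53 and 11 to 42. *Serpinh1*, the collagen chaperone, held 8 to 29 UMIs, and *Serpinf1* held 4 to 43. *Sp7* held 1 to 6 UMIs in each of the 7 cells, which is the factor whose promoter drives the transgene. *Ifitm5*, a membrane protein of mineralizing osteoblasts, held 2 to 10. These cells thus shared genes of osteoblasts, at levels that differed widely between cells.

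Other genes of the osteolineage varied more. *Spp1*, which encodes osteopontin, was at 0 in 2 cells and reached 128 UMIs in another. *Ibsp*, bone sialoprotein, was at 0 to 14 UMIs, and *Alpl*, the alkaline phosphatase of bone, at 0 to 4. Genes with a high share in the other profiles were nearly absent. *Cxcl12*, *Igfbp7* and *Fabp4* were at 0 UMIs in all 7 cells, the 8 reticular genes described below at 0, and the 18 endothelial genes at 1 UMI in sum. Of 22 listed osteolineage genes outside the rule, 15 held at least 20 UMIs and all 15 were more than 2-fold above the WT cells outside the set. This list defined the profile, so the count is a description. Of all genes with at least 20 UMIs in these cells, 26.3% passed the same limit.

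By the fold over the WT cells outside the set the leading genes were *Bglap2*, *Bglap*, *Dcn*, *Col5a2*, *Smpd3*, *Cthrc1* and *Lum*. *Smpd3*, a sphingomyelinase needed for mineralization, held 50 UMIs in the 7 cells and 3 in WT cells outside the set. *Lum*, the keratan sulfate proteoglycan lumican, held 60 against 4. *Mmp2*, *Lox* and *Pcolce*, which process or cross-link collagen, followed with 30, 26 and 52 UMIs.

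No cell of the Cko library resembled these cells. *Sp7*, *Bglap*, *Bglap2* and *Bglap3* were not listed for the Cko. A missing gene was not taken as 0 for the levels and ratios of single genes. The reason was that the listed genes of either library all had 4 or more UMIs in their highest cell. In the rule and in the limits of the profiles, however, a missing gene added 0. The Cko cells were thus scored on 7 osteolineage list genes outside the rule and the WT cells on 22. *Col1a1* was listed and held 14 UMIs in 11 Cko cells, with 4 UMIs in the highest. In the WT it held 7586 UMIs in 163 cells, with 2017 in the highest, and 7410 of them were in the 7 osteolineage-like cells. *Col1a2* held 48 UMIs in 17 Cko cells, with 8 UMIs in the highest. In the WT it held 6990 in 195 cells, with 1885 in the highest, and 6702 of them were in the same 7 cells. *Sp7* in the WT library held 38 UMIs in 14 cells, of which 33 UMIs were in 11 members.

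To show the regions from which genes of these profiles are transcribed, the RefSeq promoter windows of *Bglap* and *Ibsp* (osteolineage), *Adipoq* (reticular) and *Stab2* (endothelial) are printed from 250 bases before to 50 bases after the transcript start, 5′ to 3′ on the strand of the gene, in GRCm38.p6. The windows are chr3:88384417-88384716 (minus) for *Bglap*, chr5:104299037-104299336 (plus) for *Ibsp*, chr16:23146286-23146585 (plus) for *Adipoq* and chr10:87007893-87008192 (minus) for *Stab2*. Capitals mark matches on either strand to 3 motifs, none of which overlaps another. The core of the RUNX motif was searched as ACCACA. The TATA box was searched as TATAAA. The element bound by NF-Y was searched as CCAAT.
*Bglap*: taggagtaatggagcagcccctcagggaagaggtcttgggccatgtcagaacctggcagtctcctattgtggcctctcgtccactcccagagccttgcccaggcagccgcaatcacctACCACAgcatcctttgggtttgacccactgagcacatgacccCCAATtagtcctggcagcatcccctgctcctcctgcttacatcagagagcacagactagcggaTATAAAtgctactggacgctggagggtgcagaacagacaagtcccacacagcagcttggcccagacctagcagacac
*Ibsp*: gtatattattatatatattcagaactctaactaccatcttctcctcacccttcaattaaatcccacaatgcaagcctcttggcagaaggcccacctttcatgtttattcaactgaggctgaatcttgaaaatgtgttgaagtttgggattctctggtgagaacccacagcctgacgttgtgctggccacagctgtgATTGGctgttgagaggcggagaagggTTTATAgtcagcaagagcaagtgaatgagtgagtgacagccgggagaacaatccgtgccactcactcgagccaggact
*Adipoq*: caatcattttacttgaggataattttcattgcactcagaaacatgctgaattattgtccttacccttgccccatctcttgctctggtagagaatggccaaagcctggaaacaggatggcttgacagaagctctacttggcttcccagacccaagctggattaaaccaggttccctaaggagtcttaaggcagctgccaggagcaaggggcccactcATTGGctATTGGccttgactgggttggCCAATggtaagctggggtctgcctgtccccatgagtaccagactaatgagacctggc
*Stab2*: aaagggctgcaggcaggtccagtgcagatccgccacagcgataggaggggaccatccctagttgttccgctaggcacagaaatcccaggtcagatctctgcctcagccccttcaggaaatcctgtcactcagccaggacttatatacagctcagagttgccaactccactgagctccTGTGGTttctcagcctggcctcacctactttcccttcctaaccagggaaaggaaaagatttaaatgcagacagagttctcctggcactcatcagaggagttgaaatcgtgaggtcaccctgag
Among 32851 RefSeq windows of the same length, the RUNX core was present in 16.8%, the TATA box in 13.6% and the NF-Y element in 37.4%. The *Bglap* window held all 3 motifs, with the TATA box starting 27 bases before the transcript start. The *Ibsp* window held the TATA box and the NF-Y element on the opposite strand, the *Adipoq* window held the NF-Y element at 3 places, and the *Stab2* window held the RUNX core on the opposite strand. A match is a description of these letters and not evidence of a bound site.

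The 7 megakaryocyte-like cells had many UMIs and carried small amounts of stromal RNA. They held 20509 to 41380 UMIs per cell (median 23273), whereas the median WT cell held 6977. *Pf4* and *Ppbp*, which encode chemokines of platelet granules, held 823 to 2339 UMIs together. Their UMIs of the 7 rule genes ranged from 18 to 50 with a median of 28, and were thus the lowest of the 3 profiles in the WT by median. *Sparc*, a matrix protein that platelets also store, held 4 to 19 UMIs in these cells. *Cxcl12* held 0 to 18, *Igfbp5* 1 to 11 and *Fabp4* 0 to 11.

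Most megakaryocyte-like cells of either library lacked this signal. At least 100 UMIs of *Pf4* and *Ppbp* were found in 26 WT and 13 Cko cells. Of the 19 WT cells among them that were not members, none held more than 4 UMIs of the rule genes. The highest of the 13 Cko cells held 8, and 11 of them held 0. Stromal RNA was therefore found in some but not most of the cells with platelet genes. The 7 members had a median of 1114 UMIs of the platelet genes, against 467 in the 19 others. The members also held 13 of 13 *Adipoq* UMIs and 14 of 15 *Lpl* UMIs found in the 26 WT cells, and *Cdh5*, *Stab2* and *Emcn* together gave 8 UMIs. Scrublet, which compares cells with simulated pairs, called 122 WT and 38 Cko cells as doublets, but called no member. Simulated pairs with a stromal cell were rare, since the set was 0.638% of the WT cells, so this call cannot decide the point. The part of attached or co-captured cells in this profile was not tested.

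**Figure D3:**
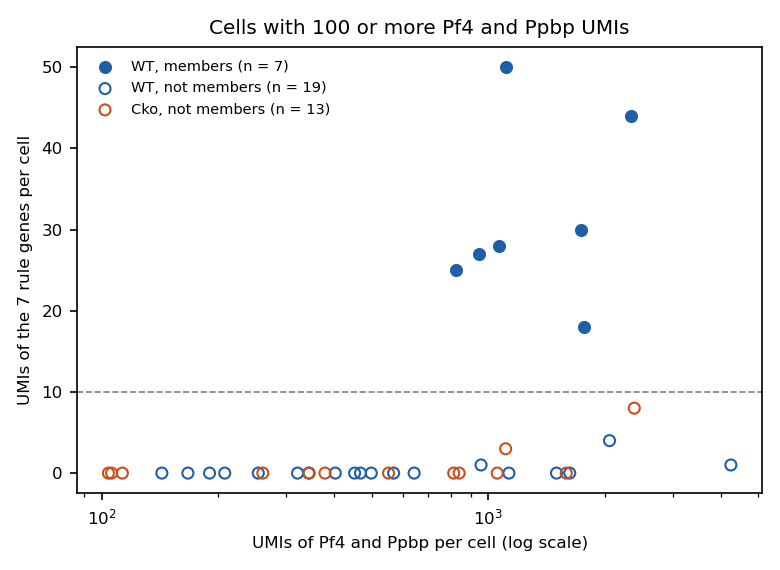
Each point is 1 cell with at least 100 UMIs of *Pf4* and *Ppbp*, with these UMIs on the horizontal log axis and the UMIs of the 7 rule genes on the vertical axis. The dashed line marks the limit of 10 UMIs. The 7 WT members lie between 18 and 50, and the 19 other WT and 13 Cko cells between 0 and 8.

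The remaining 26 WT and 16 Cko cells had reticular and endothelial genes in varying parts. Their depth was 2924 to 21728 UMIs (median 5962) in WT cells, compared with 3162 to 12872 (median 4568) in Cko cells. Both medians lay below those of the libraries, which were 6977 and 7440. To separate the programs, genes of the reticular and the endothelial lists were kept that lay outside the rule, were listed in both libraries and stood under 5 CPM in the cells outside the set. This left 8 reticular genes (*Lepr*, *Adipoq*, *Kitl*, *Gas6*, *Serping1*, *Cxcl14*, *Gdpd2* and *Agt*). It left 18 endothelial genes, among them *Cdh5*, *Emcn*, *Kdr*, *Flt1*, *Stab1*, *Stab2*, *Esam*, *Cldn5* and *Plvap*.

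At least 5 UMIs of both groups of genes were found in 15 of 26 WT cells and 9 of 16 Cko cells. Reticular genes alone were found in 4 WT and 0 Cko cells, endothelial genes alone in 5 WT and 7 Cko cells, and neither in 2 WT cells. Of the WT cells, 24 held any UMI of the reticular and 20 any of the endothelial genes, and of the Cko cells 14 and 16. Of the 7 Cko cells with endothelial genes alone, 6 held at least 15 UMIs of 8 pan-hematopoietic genes or at least 1% hemoglobin UMIs. Without such cells, endothelial genes alone were found in 4 WT and 1 Cko cells, and both groups in 14 and 9. Cells with both programs had medians of 4478 UMIs in the WT and 4321 in the Cko, lower than those of the whole profile. None was called as a doublet, but Scrublet simulates pairs from all cells, of which the set was 0.638% and 0.437%. Simulated pairs of a reticular and an endothelial cell were therefore rare, and the call cannot decide whether such pairs were present. At a limit of 10 UMIs, both groups were found in 12 WT and 4 Cko cells. Near the limit, 4 WT and 6 Cko cells held 3 to 7 reticular UMIs. Whether such a barcode held 1 cell or an aggregate of a reticular and an endothelial cell was not tested.

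**Figure D4:**
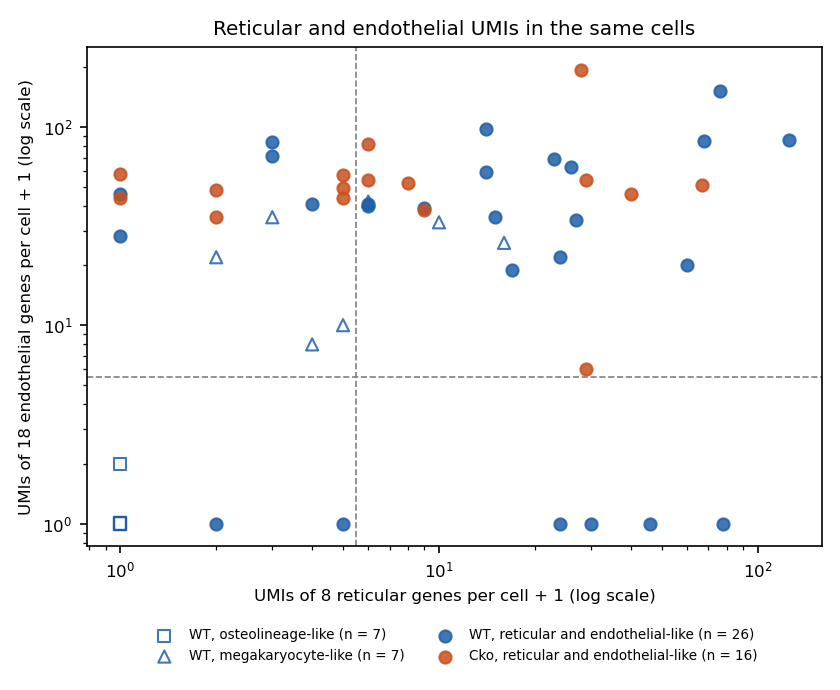
Each point is 1 member, with the UMIs of the 8 reticular genes + 1 on the horizontal and of the 18 endothelial genes + 1 on the vertical axis, both on log scales. The dashed lines mark the limit of 5 UMIs. The upper right field holds 15 WT and 9 Cko cells of the reticular and endothelial-like profile, and the lower right field holds 4 WT cells.

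The 4 WT cells with reticular genes alone had the clearest reticular pattern. *Cxcl12* stood at 9099 CPM in them, *Lpl* (lipoprotein lipase) at 6824, *Adipoq* (adiponectin) at 3461 and *Cxcl14* at 1731. All 18 endothelial genes were at 0 UMIs in these 4 cells. In the 5 WT cells with endothelial genes alone, *Adipoq* and *Cxcl14* were at 0 UMIs, whereas *Cdh5* (VE-cadherin, the adhesion molecule of endothelial junctions) stood at 919 CPM and *Emcn* (endomucin) at 671. In the 15 WT cells with both, *Adipoq* stood at 1331 and *Cdh5* at 580 CPM. *Adipoq*, *Cxcl14*, *Cdh5* and *Emcn* were among the genes that sorted the cells and *Cxcl12* is a rule gene, so these levels are a description.

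Of the 18 endothelial genes, 10 had higher levels in the WT cells with both programs than in those with endothelial genes alone, and 15 in the Cko. All 18 genes served to sort the cells and no count over all genes stands beside these, so they are a description. Of the 7 Cko cells with endothelial genes alone, 6 carried the hematopoietic or hemoglobin UMIs given above. *Stab2*, the scavenger receptor of sinusoidal endothelium, stood at 74.5 CPM (15.4 to 218, 3 UMIs) in the 5 WT cells with endothelial genes alone and at 665 in the 15 cells with both. The gene *8430408G22Rik* stood at 74.5 and 751 CPM, and *Fabp4*, the fatty acid binding protein of capillary endothelium and fat that was used by the rule, at 1639 and 9525. In the Cko, *Stab2* stood at 665 CPM (449 to 950) in the 7 cells with endothelial genes alone and at 975 in the 9 cells with both. *Stab1*, the related receptor, stood at 348 CPM (190 to 583) in the 5 WT and 488 (306 to 739) in the 7 Cko cells with endothelial genes alone, and these intervals overlapped.

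Among genes outside the rule, those with the highest fold over all other cells were shared in part between the libraries. *Adamts5*, *Cldn5*, *Mmrn2*, *Nfib* and *Gpihbp1* were among the 15 leading genes of the members in both. *Adamts5*, a protease that cleaves aggrecan and versican, held 128 UMIs in 20 of 40 WT members and 92 UMIs in 14 of 16 Cko members, against 2 and 3 UMIs in all other cells. *Gpihbp1*, which carries lipoprotein lipase across capillary endothelium, was found in 16 of 16 Cko members with 75 UMIs. The further leading genes of the Cko were *Ubd*, *Rgs4*, *Gpr126*, *Tspan7*, *Nid1*, *Tm4sf1*, *Abcc9*, *8430408G22Rik*, *Gpr116* and *Epas1*. Those of the WT were *Bglap2*, *Bglap*, *Dcn*, *Col5a2*, *Adipoq*, *Col4a1*, *Prg4*, *Cxcl14*, *Fermt2* and *Esm1*.

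Of the reticular list genes outside the rule, all 18 with at least 20 UMIs in the 26 WT cells were more than 2-fold above the WT cells outside the set, as were 8 of 10 in the Cko. For the endothelial list the counts were 26 of 27 and 22 of 22. Over all genes with 20 UMIs the shares were 40.9% in the WT and 37.7% in the Cko. The cells were chosen by genes known to be expressed with these lists, so that the counts describe the set.

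Shares of cells with a UMI were compared with those of B cells, which should lack *Cdh5*, *Adipoq* and *Bglap*. In B cells outside the set (at least 5 UMIs of *Cd79a* and *Cd79b*, 966 WT and 662 Cko cells with medians of 6092 and 7107 UMIs), *Cdh5* had a UMI in 0.621% and 0.755% of cells. Among members, whose medians were 7062 and 4568 UMIs, it had a UMI in 50% of WT and 81.3% of Cko cells. *Adipoq* had a UMI in 0.207% of WT B cells and in 0 of 662 Cko B cells, and *Bglap* in 0.621% of WT B cells. *Igfbp4*, in contrast, was found in 19.9% and 27.3% of B cells and did not mark stroma by presence alone.

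Levels were compared between the genotypes in the 26 WT and 16 Cko cells, because a comparison of all members would set the 14 osteolineage-like and megakaryocyte-like WT cells against none. Among genes with a UMI in the members of both libraries, *Col1a1* (7435 and 1 UMIs), *Ppbp* (2720 and 2), *Pf4* (7103 and 7), *Plek* (483 and 1) and *Fermt3* (358 and 1) had the lowest ratios, and a further 48 of 1605 genes with 50 UMIs were at 0 in the Cko members. Over 3484 genes with at least 20 UMIs in all members, 13.9% were more than 2-fold higher and 19.6% more than 2-fold lower in the Cko. Over 2154 genes with at least 20 UMIs in the 42 cells, 5.66% were more than 2-fold higher in the Cko and 9.75% more than 2-fold lower, with a median log2 ratio of -0.07.

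Several endothelial genes had higher levels in the Cko cells. *Fabp4* ranged from 0 to 183 UMIs per cell (median 36) in the WT and from 18 to 238 (median 75.5) in the Cko. This gave 6292 and 16044 CPM and a log2 Cko/WT ratio of 1.35 (1.24 to 1.46). It was detected in 22 of 26 WT and 16 of 16 Cko cells. The groups overlapped, and *Fabp4* had served to choose the members. The ratio remained between 1.30 and 1.46 under all 7 alternatives tried, and the other cells of the libraries gave 0.95. Doublet removal, 1 of the 7, could not change it, since no member was called as a doublet. Among cells with both programs *Fabp4* stood at 9525 and 20905 CPM, and among those with endothelial genes alone at 1639 and 10736.

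*Ackr1*, the atypical chemokine receptor of venules and sinusoids, had the largest difference among endothelial list genes. It ranged from 0 to 9 UMIs per WT cell (median 0.5) and from 0 to 26 per Cko cell (median 8), and was detected in 13 of 26 and 14 of 16 cells. Its level of 234 CPM in WT cells compared with 1548 in Cko cells, a log2 ratio of 2.73 (2.22 to 3.26). In the other cells of the libraries the ratio had the opposite sign (-1.75), from 19.9 and 5.92 CPM. Endothelial genes were at 0 UMIs in 6 of the 26 WT cells and in 0 of the 16 Cko cells. Among cells with both programs *Ackr1* stood at 390 and 1605 CPM. *Ackr1* lies at chr1:173331886-173333750 on the minus strand.

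*Vcam1*, an adhesion molecule of marrow stroma and sinusoids, held 0 to 23 UMIs (median 4) in the WT and 0 to 42 (median 8.5) in the Cko. Its log2 ratio was 1.27 (0.95 to 1.59), against -0.98 in the other cells. *Ctsl*, the lysosomal protease cathepsin L, held 0 to 27 UMIs (median 7) and 0 to 71 (median 20), with a log2 ratio of 1.50 (1.27 to 1.73). *Stab2* held 73 and 78 UMIs in sum, a log2 ratio of 1.03 (0.55 to 1.51), and *8430408G22Rik* 82 and 136, a log2 ratio of 1.66 (1.25 to 2.07). For each of these genes the cells of the 2 libraries overlapped. The intervals describe the UMIs of 42 cells and not the variation between mice. Endothelial genes had a UMI in 20 of 26 WT and 16 of 16 Cko cells, and this makeup moved with the values. Among cells with both programs *Stab2* stood at 665 (519 to 841) and 975 (719 to 1293) CPM, and these intervals overlapped. There *8430408G22Rik* stood at 751 and 1991 CPM, *Vcam1* at 1150 and 2844, and *Ctsl* at 2224 and 5241.

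Some other endothelial genes differed less. *Cdh5* gave 98 and 62 UMIs with a log2 ratio of 0.27 (-0.21 to 0.74). *Kdr*, the main receptor for vascular endothelial growth factor, gave 0.38 (-0.06 to 0.81), and *Pecam1* 0.03 (-0.79 to 0.81). The intervals of *Emcn* at 0.62 (0.05 to 1.18) and *Lrg1* at 0.93 (0.61 to 1.25) did not include equal levels. Of 30 endothelial list genes with at least 20 UMIs, 6 were more than 2-fold higher in the Cko (*Fabp4*, *Ackr1*, *8430408G22Rik*, *Gpihbp1*, *Stab2* and *Tspan7*). A further 3 were more than 2-fold lower (*Ly6a*, *Cd34* and *Fabp5*). The median of the list was 0.55, and the shares over all genes were 5.66% higher and 9.75% lower. *Fabp4* and *Igfbp7* of the list are rule genes. These counts pool the cells of the profile, whose makeup differed as given above. *Cd34* rested on 22 and 3 UMIs, 14 of the former in 1 cell.

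Of the reticular list, 16 genes held 20 UMIs, among them the rule genes *Cxcl12* and *Igfbp5*. *Vcam1* was the only gene more than 2-fold higher, and *Cxcl14*, *Adipoq* and *Ebf1* were more than 2-fold lower, with a list median of -0.28, beside the same shares of 5.66% and 9.75% over all genes. *Cxcl12* held 0 to 154 UMIs (median 19.5) in the WT and 0 to 99 (median 11) in the Cko, and its log2 ratio was -0.03 (-0.19 to 0.13). *Igfbp4* gave -0.03 (-0.25 to 0.19). *Adipoq* held 210 and 54 UMIs, a log2 ratio of -1.03 (-1.49 to -0.59), and *Cxcl14* 164 and 25 UMIs, a log2 ratio of -1.78 (-2.45 to -1.17). *Igfbp5*, which binds insulin-like growth factors, gave -0.90 (-1.21 to -0.60). Its ratio moved to -0.37 without the cells with hematopoietic or hemoglobin UMIs, and 76 of its 405 WT UMIs were in 1 cell. The makeup of the cells moved with these values, since reticular genes alone were found in 4 WT and 0 Cko cells (4 and 1 at a limit of 10 UMIs). *Adipoq* and *Cxcl14* were among the genes that sorted the cells, so this makeup and their levels are not independent. Among cells with both programs *Adipoq* stood at 1331 and 1077 CPM, *Cxcl14* at 1226 and 488, and *Cxcl12* at 6911 and 9305.

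Stem cell factor (*Kitl*) held 28 and 17 UMIs and the leptin receptor (*Lepr*) 21 and 13. Their log2 ratios were 0.21 (-0.75 to 1.13) and 0.24 (-0.88 to 1.30). Both intervals include equal levels and reach past 2-fold higher in the Cko, but not past 2-fold lower. Of 6 niche signal genes with 20 UMIs, 1 (*Vcam1*) was more than 2-fold higher and 0 were lower. Of 5 genes of insulin-like growth factor and its binding proteins, *Igfbp3* was more than 2-fold higher with 10 and 22 UMIs, and 0 were lower. Beside both counts, the shares over all genes were 5.66% higher and 9.75% lower. Rule genes are part of both counts, with *Igfbp5* and *Igfbp7* among the 5.

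**Figure D5:**
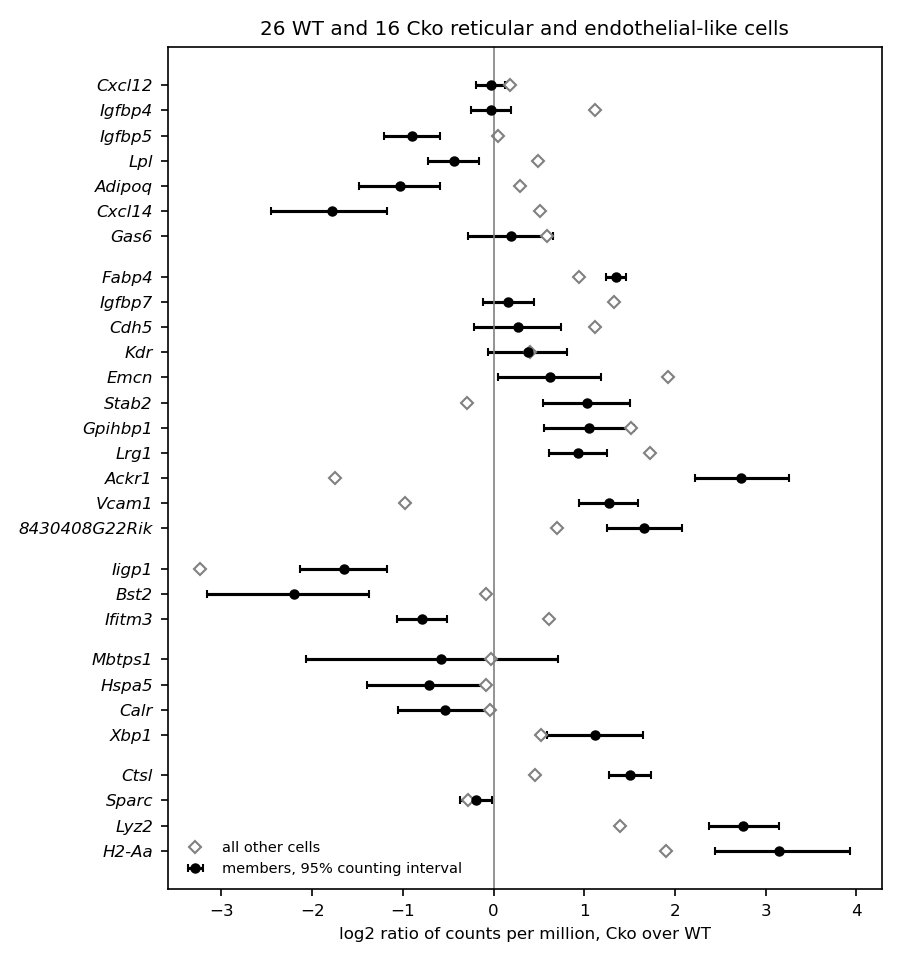
Black points give the log2 Cko/WT ratio of CPM in the 26 WT and 16 Cko reticular and endothelial-like cells with the 95% counting interval, and grey diamonds the same ratio in all other cells of the libraries. *Ackr1* at 2.73 and *Vcam1* at 1.27 lie to the right of 0 and their diamonds to the left, whereas *Cxcl12* at -0.03 and *Cdh5* at 0.27 have intervals that include 0. The makeup of the other cells differed between the libraries.

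Of 25 matrix list genes with 20 UMIs, 7 were more than 2-fold lower (*Col1a1*, *Col3a1*, *Col6a2*, *Ibsp*, *Lox*, *Mmp14* and *Timp2*) and 0 were higher, with a list median of -0.32, beside 9.75% lower and 5.66% higher over all genes. *Col1a1*, *Col1a2* and *Sparc* are also rule genes. Type I collagen outside the osteolineage-like cells was low, with 25 *Col1a1* UMIs in 9 WT cells and 1 UMI in the Cko, and 10 of the 25 were in 1 cell. *Col1a2* held 109 UMIs in 17 WT and 29 in 8 Cko cells, a log2 ratio of -0.98 (-1.62 to -0.38). *Col6a2* held 41 UMIs in 11 WT cells and 2 UMIs in 2 Cko cells, a log2 ratio of -3.43 (-6.52 to -1.48), whereas *Col6a3* of the same collagen held 30 and 28, a log2 ratio of 0.83 (0.03 to 1.62). Basement membrane genes differed less, with -0.32 (-0.88 to 0.21) for *Col4a1* and 0.22 (-0.42 to 0.84) for *Hspg2*, which encodes perlecan. *Ibsp* was found in 14 WT and 3 Cko cells, with 60 and 11 UMIs.

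*Bst2*, which encodes the interferon-induced protein tetherin, held 0 to 16 UMIs per WT cell (median 3.5) and 0 to 3 per Cko cell (median 1), a log2 ratio of -2.20 (-3.15 to -1.37), against -0.08 in the other cells. *Iigp1*, an interferon-inducible GTPase outside the lists and chosen after its values were seen, held 262 and 44 UMIs, a log2 ratio of -1.64 (-2.14 to -1.18), and -3.23 in the other cells. *H2-D1*, a class I histocompatibility gene, had a log2 ratio of 0.79 (0.50 to 1.08), against 1.56 in the other cells. Of 9 class I histocompatibility and interferon list genes with 20 UMIs, 0 were more than 2-fold higher and 2 were lower. The list median was 0.19, and the shares over all genes were 5.66% higher and 9.75% lower.

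*Mbtps1*, the deleted gene at chr8:119508156-119558735, held 0 to 3 UMIs per cell in both groups, 20 in the WT and 7 in the Cko. The log2 ratio was -0.58 (-2.07 to 0.72) and was not distinguishable from equality at this depth. In all 40 WT members it held 28 UMIs in 18 cells. The floxed part is exon 2, whereas the tags come from the 3′ end, so these values do not check the deletion. In the 7 osteolineage-like cells *Mbtps1* had 1 UMI in sum.

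The pathways downstream of S1P were measured in part only. Of 32 genes of S1P and the sterol pathway, 18 were listed for the WT, 12 for the Cko and 10 for both, and only *Mbtps1* and *Scd1* held 20 UMIs. *Scd1*, a fatty acid desaturase, was more than 2-fold lower on 24 UMIs in 5 WT cells and 5 UMIs in 1 Cko cell, with a log2 ratio of -1.33 (-3.08 to 0.09). Of 14 genes of the endoplasmic reticulum with 20 UMIs, 1 (*Xbp1*) was more than 2-fold higher, 0 were lower and the median was -0.32. Over all genes the shares were 5.66% higher and 9.75% lower. *Xbp1*, a transcription factor of the unfolded protein response, held 58 and 66 UMIs, a log2 ratio of 1.12 (0.59 to 1.65). The chaperone genes *Hspa5* and *Calr* gave -0.71 (-1.39 to -0.07) and -0.53 (-1.06 to -0.03), and *Hsp90b1* gave -0.50 (-1.09 to 0.07).

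Among genes with at least 50 UMIs in the 42 cells, those with the highest Cko/WT ratios were *Alox5ap* (5 and 50 UMIs), *H2-Aa* (20 and 93), *H2-Eb1* (9 and 41), *Ngp* (24 and 98) and *Lyz2* (74 and 261). These are genes of myeloid and antigen-presenting cells. They rested on few barcodes, since 40 of the 41 *H2-Eb1* UMIs were in 1 Cko cell, 74 of the 98 *Ngp* UMIs in another, and 113 *Lyz2* UMIs in a further cell. The lowest ratios were those of *G0s2* (77 and 5 UMIs, 73 in 1 WT cell), *Serpina3f* (72 and 7), *Stmn1* (53 and 6), *Bst2* (114 and 13) and *Car2* (113 and 15).

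Hematopoietic RNA was also present in these cells. At least 15 UMIs of the 8 pan-hematopoietic genes were found in 3 of 26 WT and 5 of 16 Cko cells, against 38.4% and 81.8% of the cells outside the set. At least 1% of the UMIs were hemoglobin in 2 WT cells and 1 Cko cell. Without these 4 WT and 6 Cko cells, *Lyz2* changed its direction to -0.47 and *Car2* moved from -1.98 to -0.23 and *Stmn1* from -2.21 to -1.29, whereas *Ackr1* stayed at 2.59, *Stab2* at 0.84 and *Iigp1* at -1.84. *Fabp4* gave 1.38, *Vcam1* 1.29 and *Ctsl* 1.51 without these cells. Among reticular list genes, *Igfbp5* moved from -0.90 to -0.37, *Cxcl12* from -0.03 to 0.23 and *Adipoq* from -1.03 to -0.71. Of 5 neutrophil list genes with 20 UMIs, 3 were more than 2-fold higher and 1 lower in the Cko, and of 6 B cell genes 0 were higher and 4 lower. Over all genes the shares were 5.66% higher and 9.75% lower. The part of hematopoietic RNA in the remaining differences was not tested.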

How the data were processed

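BMCs of 1 WT and 1 Cko mouse were measured. Per the labels, the authors used version 2 of the Chromium 3′ chemistry, and the submitters' processing notes name Cell Ranger and GRCm38. The version of Cell Ranger is not given in the sources used here. The deposited matrices hold UMI counts, which are not normalized. The WT counts listed 7181 genes and 56382459 UMIs, the Cko counts 6735 genes and 34447224 UMIs, and 6001 genes were listed in both. *Pde4d* was listed in duplicate for the WT and was summed.

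Barcodes with at least 200 genes were kept. In total 28 barcodes occurred in both libraries, none of them a member. Levels are UMIs summed over cells and scaled to CPM. Shares have exact binomial, levels exact Poisson and ratios exact conditional 95% intervals, and a count of 0 was read as allowing 3. No test was made. Named genes were the rule genes, *Mbtps1*, *Sp7*, list genes, the 15 leading genes per library with at least 20 UMIs, and the 5 highest and 5 lowest ratios with at least 50 UMIs, together with genes chosen after their values were seen (the genes named within a profile, *Ctsl* and *Iigp1*). The members, lists and limits were chosen with earlier results of these data known. Alternatives were other rule limits, doublet removal (Scrublet in scanpy 1.11.5, expected rate 5%), thinning, other weightings and scalings, and left-out cells. Ratio intervals were tested on simulated data. Positions are from GENCODE M21. Scripts ran in Python 3.11.15 with scipy 1.17.1 for intervals, pandas 2.3.3, numpy 2.4.6, Biopython 1.88 for identities and, for plots, matplotlib 3.10.9. A withheld item is not reported here.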

Additional observations from a re-analysis of the deposited data

Results flagged for a closer look

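In each library 1 cell outside the stromal set stood apart through cartilage genes, a signal in cells that the comparisons above did not use. The WT cell held 1097 UMIs of 6 cartilage genes, where no other WT cell outside the set held more than 1. Of these, 669 were of *Col10a1*, the collagen of hypertrophic cartilage, 232 of *Col2a1* and 110 of *Acan*, and the cell also held 38 UMIs of *Ihh* and 562 of *Mgp*. The Cko cell held 138 UMIs of the 6 genes, where the next cell held 3, with 76 of *Col10a1* and 5 of *Col2a1*. It held 1182 UMIs of *Spp1*, 470 of *Mgp* and 50 of *Mmp13*, against 358, 562 and 26 in the WT cell. Both cells were left out because *Sparc* was their only gene of the rule. They held 12102 and 12547 UMIs in all and neither was called as a doublet.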

How the results depend on the processing

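The share of the stromal set in the WT was 1.15% with cells under 1% hemoglobin UMIs as members and denominator and 0.431% after thinning to 3000 UMIs. It was 0.415% without the osteolineage-like and megakaryocyte-like members, an alternative added after seeing the data. The log2 ratio of the shares ranged from -1.29 (hemoglobin limit, interval -2.26 to -0.38) to 0.08 (without these members). In all members 514 of 1605 genes with 50 UMIs were past 2-fold, and 272 in the reticular and endothelial-like cells alone. There *Cxcl12* (-0.0297) and *Ppbp* (0.93) had the opposite sign to all members. *Pf4* gave 0.19 at 5 or more UMIs, and *H2-Eb1* -0.25 without its highest cell. Among the reticular and endothelial-like cells, *Lyz2* became -0.47 without cells with hematopoietic UMIs, *Ngp* -2.12 at 5 or more UMIs and *H2-Eb1* -1.55 without its highest cell. Of 242 values for 35 genes in these cells, 223 stayed within the counting interval of the reported ratio, 16 moved outside it and 3 reversed. The values for doublet removal are among the 223 and could not move, since no member was called as a doublet. *G0s2* moved to -1.06 without its highest cell. Settings for the rule genes listed in both libraries, for at least 3 rule genes and for called doublets left the members as they were. With 1 library per genotype no replicate could be left out. No paired analysis was possible because no test was made and each genotype had 1 library. At this depth the ratios of *Mbtps1* (20 and 7 UMIs) and *Lepr* (21 and 13 UMIs) had intervals wider than 2-fold. Without cells with hematopoietic UMIs, *Car2* moved to -0.23, and *Stmn1* moved to -0.76 at 5 or more UMIs.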

Other observations

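Of the 26 WT cells of the third profile, 1 held 191 UMIs of *Prg4*, which encodes the joint lubricant lubricin, and *Prg4* had 9 UMIs in all WT cells outside the set. This cell held 76 UMIs of *Igfbp5*, 15 of *Dcn* and 10 of *Bglap2*, 0 UMIs of the endothelial genes and 4 of the reticular genes. It also held 43 UMIs of the pan-hematopoietic genes.

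The *Stfa* family of 8 listed stefin genes gave 3 UMIs in the 26 WT cells and 14 in the 16 Cko cells, which is 16.7 and 148 CPM. In the cells outside the set the family stood at 518 and 3442 CPM. Genes of the immediate early response, which also respond to tissue digestion, were at 2659 and 2386 CPM in these cells, against 497 and 710 CPM outside the set. Of 15 such genes with 20 UMIs, 1 was more than 2-fold higher in the Cko (*Nfkbia*) and 3 were lower (*Egr1*, *Klf2* and *Dusp1*). Over all genes the shares were 5.66% higher and 9.75% lower.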
